A study of Drosophila melanogaster with 6 samples.

Results

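The probes described here were designed to GM clones, cDNA clones of the Drosophila ovary library, so each stands for a transcript that was once cloned from ovary RNA. They were chosen as every probe on the array, control features aside, whose identifier is GM followed by digits only. The rule found 87 probes for 63 clones, of 32162 probes for 25857 identifiers in all. The 87 probes occupied 90 of 43602 spots, because 3 of them were printed on 2 spots, and spots of a probe were averaged. There were 41 clones with 1 probe, 20 with 2 and 2 with 3.

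RNA of whole ovaries was compared on 6 two-color Agilent arrays, 3 for ectopic expression ovaries and 3 for control ovaries. Ectopic expression ovaries carried GAL80TS/+ on one chromosome, with GR1-GAL4 opposite the UAS-Unpaired and UAS-lambdatorpedo transgenes. In control ovaries GAL80TS/+ was combined with GR1-GAL4 opposite the TM6B balancer, so that only the controls carried the balancer. Both groups shared the driver and GAL80TS, were crossed at 18°, were moved to 29° for 16 h before dissection at an age of 5 to 8 days, and gave 1 pool of several ovary pairs per array. The Cy5 channel of each array held the ovary sample and the Cy3 channel a common reference of wild-type OreR ovaries. GR1-GAL4 drives the transgenes in the follicle cells (FCs), whereas the germline, FCs and ovarian sheath were all extracted, so fewer cells of a type and less RNA per cell cannot be told apart.

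An egg chamber consists of a germline cyst, the oocyte and its nurse cells, enclosed by an epithelium of FCs. Unpaired is the secreted ligand of the JAK/STAT pathway, and lambdatorpedo is a constitutively active form of Torpedo, the Drosophila EGF receptor. The 2 pathways together specify posterior follicle cells (PFCs), and the comparison asks which transcripts differ when both are active throughout the FCs. A cDNA library samples transcripts of every cell type in its tissue roughly by their abundance, so a GM clone carries no information on whether its transcript came from the germline or the soma.

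Only 14 of the 63 clones, with 21 probes, were paired with a gene in the RefSeq table, each with exactly 1 gene, and the other 49 are given by clone name. No other probe of the array was named for any of these 14 genes, but such probes may be present without a name here. The tissue label could not be checked by markers, because the table named only 491 of all 32162 probes, so that a marker gene may have a probe without a name here. The 7 marker lists, for germline, FCs, PFCs, muscle sheath, hemocytes, fat body and testis, held 51 entries. The gene bam was on both the germline and the testis list. Of the entries, 2 had a named probe (jim and kek1, both on the PFC list) and 0 had a named GM probe. The scanner software flags spots that are well above background, and over the whole array it did so in Cy5 for 23606 to 25205 spots per ectopic expression array, against 24903, 24449 and 33915 in control replicates 1, 2 and 3. Control replicate 3 therefore stood apart in detection, and the detection counts and shares of the GM probes are also given without it, a choice made after seeing the data. Saturation was flagged on 0 spots. Precision is limited by the number of arrays, which the labels give as biological replicates.

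Most GM probes were detected in ovaries of both groups. In the Cy5 channel 59, 57 and 54 of the 87 probes (67.8%, 65.5% and 62.1%) were well above background in ectopic expression replicates 1, 2 and 3, against 57, 57 and 75 (65.5%, 65.5% and 86.2%) in control replicates 1, 2 and 3. The groups overlapped, and control replicate 3 was the highest array. All other probes were detected in 55.3%, 54.2% and 51.6% of cases on the ectopic expression arrays. On the control arrays they were detected in 54.7%, 53.5% and 75.7% of cases. The GM share was thus above the remainder on each of the 6 arrays. That remainder is mixed. Its 21630 probes with FBtr identifiers averaged 66.1% in Cy5 over the 6 arrays, close to 68.8% for GM, and its 4622 TC probes averaged 36.5%. In Cy3 the averages were 62.4% for FBtr and 64.2% for GM probes. In the Cy3 channel, which held the wild-type reference, 59.8% to 67.8% of the GM probes were well above background on the ectopic expression arrays and 62.1% to 66.7% on the control arrays.

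**Figure D1:**
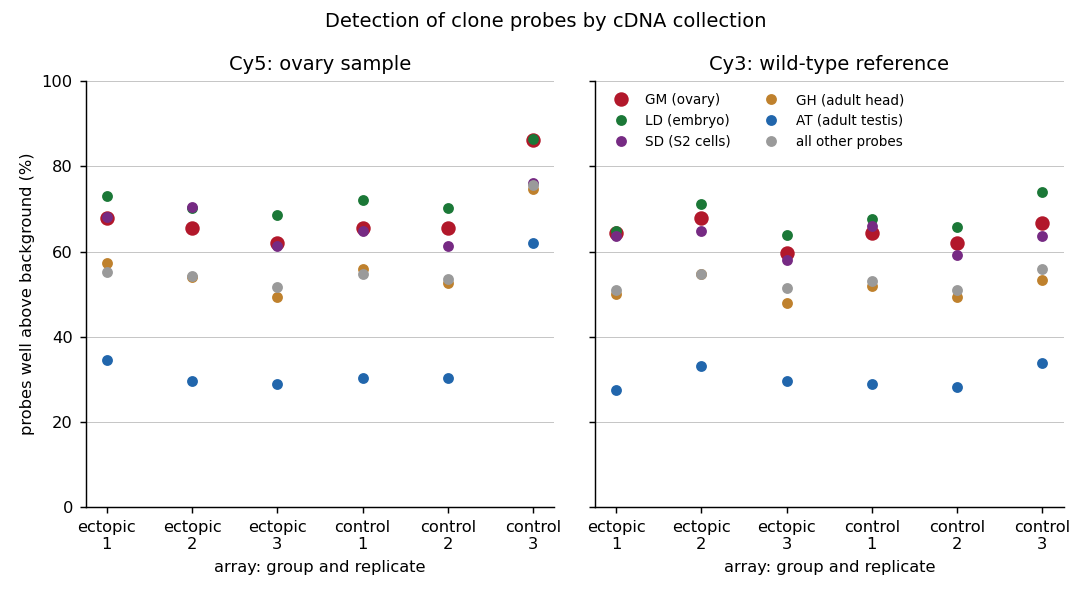
Share of probes well above background (y axis, %) on each array (x axis), for GM probes, probes of clones from 4 other cDNA collections and all other probes, in the Cy5 channel (left, ovary sample) and the Cy3 channel (right, wild-type reference). GM probes lie above all other probes on every array in both channels, and control replicate 3 is high in Cy5 for each collection.

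Of the 87 GM probes, 51 (58.6%) were well above background in Cy5 on all 6 arrays, against 47.3% of all other probes. On none were 10 (11.5%), against 21.1% of all other probes. For the probes with FBtr identifiers alone the shares were 57.8% and 16.7%. These 51 probes covered 42 of the 63 clones, and 3 clones had no probe detected on any array. Without control replicate 3, 51 probes from 42 clones were detected on all 5 remaining arrays, 24 probes (27.6%, against 37.8% of all other probes) were on none, and 14 clones had no detected probe. A further 14 probes (16.1%) were detected on a single array, and for each of them that array was control replicate 3. The same held for 16.7% of all other probes. Leaving out control replicate 3, the share of GM probes above background averaged 65.3% over the 5 remaining arrays, against 68.8% over all 6. There were 0 GM probes detected on all ectopic expression arrays and no control array, and 0 with the opposite pattern. Both patterns were rare among all other probes (0.234% and 0.542%), so these counts do not set the GM probes apart.

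Clone collections from other tissues gave a scale for these shares. Averaged over the 6 arrays, 68.8% of GM probes were detected in Cy5, next to 73.4% of LD probes (embryo), 67.0% of SD probes (the S2 cell line), 57.3% of GH probes (adult head) and 36.0% of AT probes (adult testis). Collections from the same source differed, with 55.4% for RE probes (embryo) and 47.0% for RH probes (adult head). The GM share exceeded that of AT on each array, with a range of 62.1% to 67.8% against 29.0% to 34.5% in ectopic expression ovaries and 65.5% to 86.2% against 30.3% to 62.1% in control ovaries. The mean GM share was below that of LD. Without control replicate 3 the means were 65.3% for GM, 70.8% for LD, 65.2% for SD, 53.9% for GH and 30.8% for AT probes. These shares are descriptions, because probes of different sequence differ in brightness and the collections were assembled in different ways.

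Background-subtracted brightness of the GM probes was modest and spread widely. Their median Cy5 intensity was 120.5, 91 and 76.5 in ectopic expression replicates 1, 2 and 3, against 80, 77 and 102 in control replicates 1, 2 and 3, with overlapping groups. Brightness also depends on the sequence of a probe. All other probes had medians of 66, 39 and 35 on the ectopic expression arrays and 52, 50 and 77.3 on the control arrays. The 5 GM probes that were brightest in control ovaries belonged to the clones GM15778, GM15484, GM02062, GM01793 and GM22884. The GM15778 probe gave a Cy5 intensity of 93678, 62414 and 69809 in ectopic expression replicates and 71105, 63641 and 82501 in control replicates, and the groups overlapped. One probe of GM15484 (A_09_P049726) gave 47625, 35090 and 40463 in ectopic expression replicates and 40439, 30850 and 47509 in control replicates, again overlapping. Of these 5 probes only that of GM01793 passed the test described below.

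Most GM probes had ratios close to the wild-type reference. In the deposited log2 ratios of Cy5 over Cy3, the median over the GM probes was 0.09, 0.04 and 0.06 in ectopic expression replicates 1, 2 and 3, and -0.01, -0.03 and -0.01 in control replicates 1, 2 and 3. The groups did not overlap, while the median of all other probes was 0 on each array. The interquartile range of the GM probes ran from -0.05 to 0.30, -0.09 to 0.46 and -0.10 to 0.23 on the ectopic expression arrays, and from -0.14 to 0.11, -0.14 to 0.07 and -0.13 to 0.14 on the control arrays. Thus the difference lay mainly in the upper part of the distribution. Probes near background have ratios near 0 whatever the transcript level, so the distance from the reference was counted over the 51 probes detected on all 6 arrays, on the ratios computed here from the intensities. Of these, 37 in ectopic expression ovaries (72.5%, against 77.8% of all other such probes) and 44 in control ovaries (86.3%, against 89.9%) had a mean within 0.5 of the reference on the log2 scale. A mean 2-fold or more from it was found for 5 in ectopic expression ovaries (9.80%, against 6.32%) and 1 in control ovaries (1.96%, against 2.46%).

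Ectopic expression was then compared with control ovaries by limma, with P-values adjusted by the Benjamini-Hochberg method over all 32162 probes. A probe was called at an adjusted P-value below 0.05 and a fold change of at least 2. Of the 87 GM probes 3 were called higher in ectopic expression ovaries (3.45%), against 1.29% of all probes. They belonged to 2 clones, GM01761 and GM10545. In the other direction limma called 0 GM probes, against 0.824% of all probes. An unadjusted limma P-value below 0.05 together with a 2-fold decrease was also met by 0 GM probes, and with a 2-fold increase by 3. Regardless of fold, 6 were lower and 27 higher at an unadjusted limma P-value below 0.05. The share over all probes at this unadjusted threshold is not given. The count of 3 became 2 without control replicate 1, where 1 of the probes of GM10545 had a log2 difference of 0.99, and 5 without ectopic expression replicate 3, where a probe of GM14202 and a probe of GM06913 joined. The count of 0 became 1, the probe of GM01793, without control replicate 3. Counts over all probes are not given for the fits with an array left out.

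Without the fold criterion, 17 GM probes were higher in ectopic expression ovaries (19.5%, against 6.47% of all probes) and 6 were lower (6.90%, against 5.55% of all probes). These 23 probes belonged to 18 clones, 13 with higher and 5 with lower probes. In each of the 23 the 3 ectopic expression arrays lay beyond the 3 control arrays, and each was well above background on all 6 arrays. Over the whole GM set, the ectopic expression arrays lay entirely above the control arrays for 29 probes (33.3%, against 14.0% of all probes) and entirely below them for 8 (9.20%, against 13.6%). The number of higher probes became 10 without ectopic expression replicate 1, 11 without ectopic expression replicate 2 and 11 without control replicate 2. The number of lower probes became 2 without ectopic expression replicate 1 and 3 without control replicate 2. Of the 23 probes, 12 (10 higher and 2 lower, from 10 clones) passed with each array left out in turn. With arrays only centered on their medians, 8 were higher and 1 was lower. The share over all probes is not given for these altered fits, so these drops cannot be called particular to the GM probes.

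**Figure D2:**
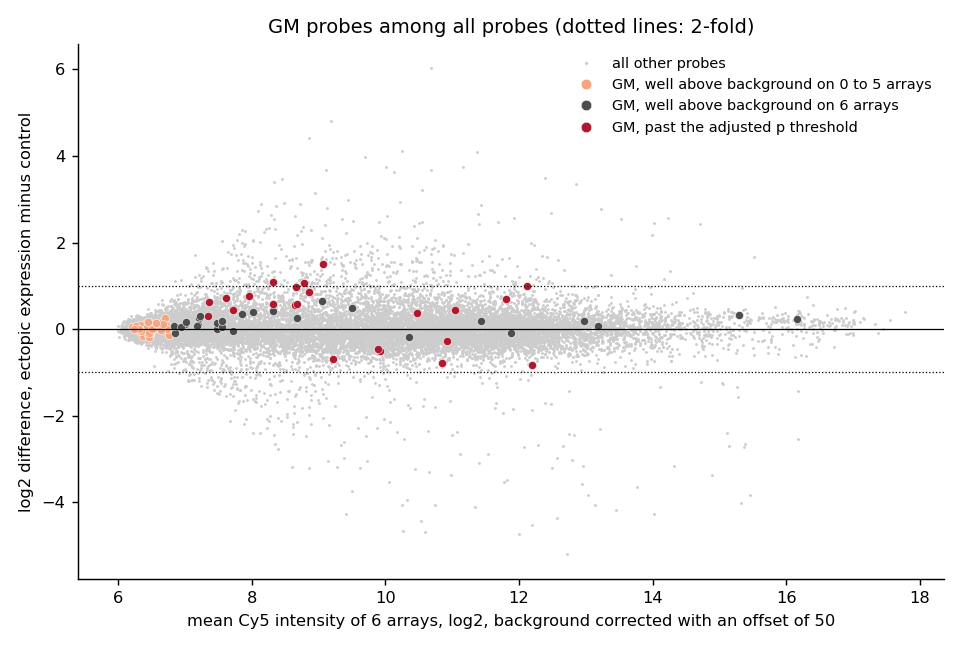
Log2 difference of ectopic expression minus control ovaries (y axis) against mean Cy5 intensity of the 6 arrays on a log2 scale (x axis), for the 87 GM probes (large points) over all other probes (small gray points). The 23 GM probes past the adjusted P-value threshold (red) are all well above background on 6 arrays, and 3 of them lie above the upper 2-fold line.

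Since all 23 were detected on all 6 arrays, the shares were also taken over such probes only. Among probes well above background in Cy5 on all 6 arrays, 23 of 51 GM probes passed the adjusted P-value threshold in either direction (45.1%), against 23.2% of 15231 such probes on the whole array. With control replicate 3 left out of both the detection and the fit, the share was 45.1%, against 19.9% of all other such probes. The median log2 difference of these 51 GM probes was 0.25, against 0.01 for all such probes. Over all 87 GM probes the median was 0.10, with a range from -0.83 to 1.49, against -0.003 over all probes, and 63 of the 87 (72.4%) had a positive difference, against 49.0% of all probes. These are counts and medians of the set, and no set test was run.

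Other clone collections did not all share this shift. Of 88 SD probes from S2 cells 17 were higher (19.3%) and 5 lower, and their median log2 difference was 0.07. The share of higher probes thus lay close to that of the GM probes, but 14 of the 17 higher SD probes reached 2-fold, against 3 of the 17 higher GM probes. Of 111 LD probes 10 were higher and 5 lower. Of 145 AT probes, 2 were higher and 2 lower, with a median difference of 0.005. The collections differ in detection, so the shares were also taken over probes well above background in Cy5 on all 6 arrays. Of these, 43.8% of 48 SD, 18.8% of 69 LD and 8.11% of 37 AT probes passed in either direction, against 45.1% of 51 GM probes. The GM share thus lay close to that of SD, whose 48 probes had a median difference of 0.18. Differences between collections were not tested.

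**Figure D3:**
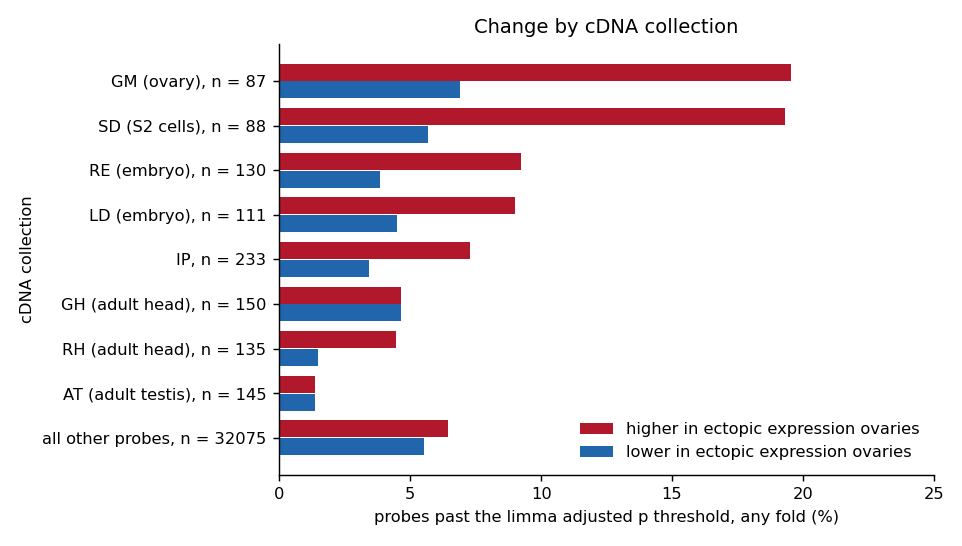
Share of probes past the limma adjusted P-value threshold at any fold (x axis, %), higher (red) and lower (blue) in ectopic expression ovaries, by cDNA collection (y axis, with the number of probes). GM and SD probes have the highest shares of higher probes shown, 19.5% and 19.3%, and AT probes the lowest, with 2 of 145. Shares are over all probes of a collection, detected or not.

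The largest difference was that of GM01761, a clone of Pka-R2, which encodes a regulatory subunit of the cAMP-dependent protein kinase. Its log2 ratio to wild type was 1.44, 1.63 and 1.26 in ectopic expression replicates 1, 2 and 3, against -0.07, -0.18 and 0.09 in control replicates 1, 2 and 3. Control ovaries therefore lay at the wild-type level, and all ectopic expression ovaries lay well above it. The background-subtracted Cy5 intensity was 949, 814 and 760 in ectopic expression ovaries, against 268, 224 and 292 in control ovaries. The signal of this Pka-R2 probe rose 2.82-fold (log2 difference 1.49 ± 0.11 SE, n = 3 each, limma adjusted P = 0.000141). Within the 3 slides, each of which carried 1 array of either group, the log2 difference was 1.50, 1.81 and 1.18.

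Both probes of GM10545, a clone without a gene name here, rose as well. The log2 ratio of A_09_P176940 was 1.08, 1.17 and 1.28 in ectopic expression ovaries, against 0.10, 0.02 and 0.18 in control ovaries, a difference of 1.08 ± 0.08 (SE, limma adjusted P = 0.000162). The log2 ratio of A_09_P177250 was 1.35, 1.08 and 1.40 in ectopic expression ovaries, against 0.09, 0.17 and 0.40 in control ovaries, a difference of 1.06 ± 0.11 (SE, limma adjusted P = 0.000774). This probe was the member just inside the 2-fold threshold. The member just outside it was GM14202, with log2 ratios of 0.76, 1.02 and 0.54 in ectopic expression ovaries, against -0.27, -0.37 and -0.03 in control ovaries, and a difference of 0.998 (limma adjusted P = 0.0023). Both clones thus lay near wild type in control ovaries, on opposite sides of it, and above it in ectopic expression ovaries.

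The clone GM06913 represents ckn (caskin), a scaffold protein with ankyrin repeats. Its probe A_09_P182125 had log2 ratios of 0.94, 1.00 and 0.87 in ectopic expression ovaries, against -0.04, 0.07 and -0.13 in control ovaries. The other probe, A_09_P090235, had 0.81, 1.07 and 0.81 in ectopic expression ovaries, against 0.03, -0.05 and 0.12 in control ovaries. The 2 probes gave differences of 0.97 and 0.87 (limma adjusted P = 0.000236 and 0.000834), a rise just short of 2-fold on both.

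Among the remaining named clones, 3 others had a probe that rose. Cyp1, a cyclophilin that acts as a peptidyl-prolyl isomerase, was measured by 3 probes of GM09255. Its probe A_09_P173330 had log2 ratios of 0.81, 0.76 and 0.86 in ectopic expression ovaries, against 0.25, 0.08 and 0.38 in control ovaries (difference 0.58, limma adjusted P = 0.00462). The other Cyp1 probes had differences of 0.57 and 0.65, with limma adjusted P-values of 0.0458 and 0.0538, so that the largest of the 3 differences was the one that missed the threshold. Its groups did not overlap either, but control replicate 3 (0.11) came close to ectopic expression replicate 3 (0.15). The probe with a difference of 0.57, A_09_P212460, was alike, with 0.05 in control replicate 3 and 0.10 in ectopic expression replicate 3. With each array left out in turn, A_09_P212460 passed in 2 of 6 fits and A_09_P173330 in 6.

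Gen (GM10765), which encodes a nuclease of the family that resolves Holliday junctions, lay below wild type in both groups. Its log2 ratios were -0.24, -0.33 and -0.16 in ectopic expression ovaries, against -0.61, -0.60 and -0.61 in control ovaries, and the transcript was 0.36 higher on the log2 scale (limma adjusted P = 0.0159). For spen (GM01870), a nuclear RNA-binding protein involved in transcriptional repression, A_09_P178835 had 0.53, 0.52 and 0.71 in ectopic expression ovaries, against 0.26, 0.25 and 0.30 in control ovaries (difference 0.31, limma adjusted P = 0.0356). The other spen probe had a difference of 0.26 with a limma adjusted P-value of 0.128. Without each array in turn, the Gen probe passed in 3 of 6 fits and the spen probe in 0 of 6. Over all 19 alternative fits, which include these 6, the Gen probe passed in 12 and the spen probe in 8. The lowest Gen difference among them was 0.12.

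CR43670, annotated as a pseudogene and represented by GM06363, was the named clone that fell. Its probe A_09_P179555 had log2 ratios of -0.13, -0.17 and 0.06 in ectopic expression ovaries, against 0.63, 0.53 and 0.68 in control ovaries (difference -0.69, limma adjusted P = 0.0016). The other probe, A_09_P049601, had 0.03, -0.08 and 0.22 in ectopic expression ovaries, against 0.54, 0.57 and 0.55 in control ovaries (difference -0.50, limma adjusted P = 0.00902). On both probes the transcript was above wild type in control ovaries and near it in ectopic expression ovaries. The files give no strand for the probe, and a pseudogene can share sequence with its parent gene, so the source of this signal was not tested.

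The other named clones described here had no probe past the threshold. PlexA, a semaphorin receptor, had a log2 difference of 0.19 and was well above background on 2 arrays, and foraging (for), a cGMP-dependent protein kinase, had -0.13 and was detected on 1 array. The signals of these 2 genes were thus close to background on most arrays. Differences were 0.19 for Polr2J, a subunit of RNA polymerase II, 0.14 and 0.12 for sowah, -0.10 and 0.05 for SK, a calcium-activated potassium channel, and -0.04 for Cf2, a zinc finger transcription factor known from FCs. CG33941 (GM01028) stood out by its distance from wild type, with log2 ratios of -1.21, -1.26 and -0.84 in ectopic expression ovaries and -1.09, -1.00 and -1.40 in control ovaries. It was the only GM probe whose mean was 2-fold or more from the reference in both groups, and its groups overlapped.

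**Figure D4:**
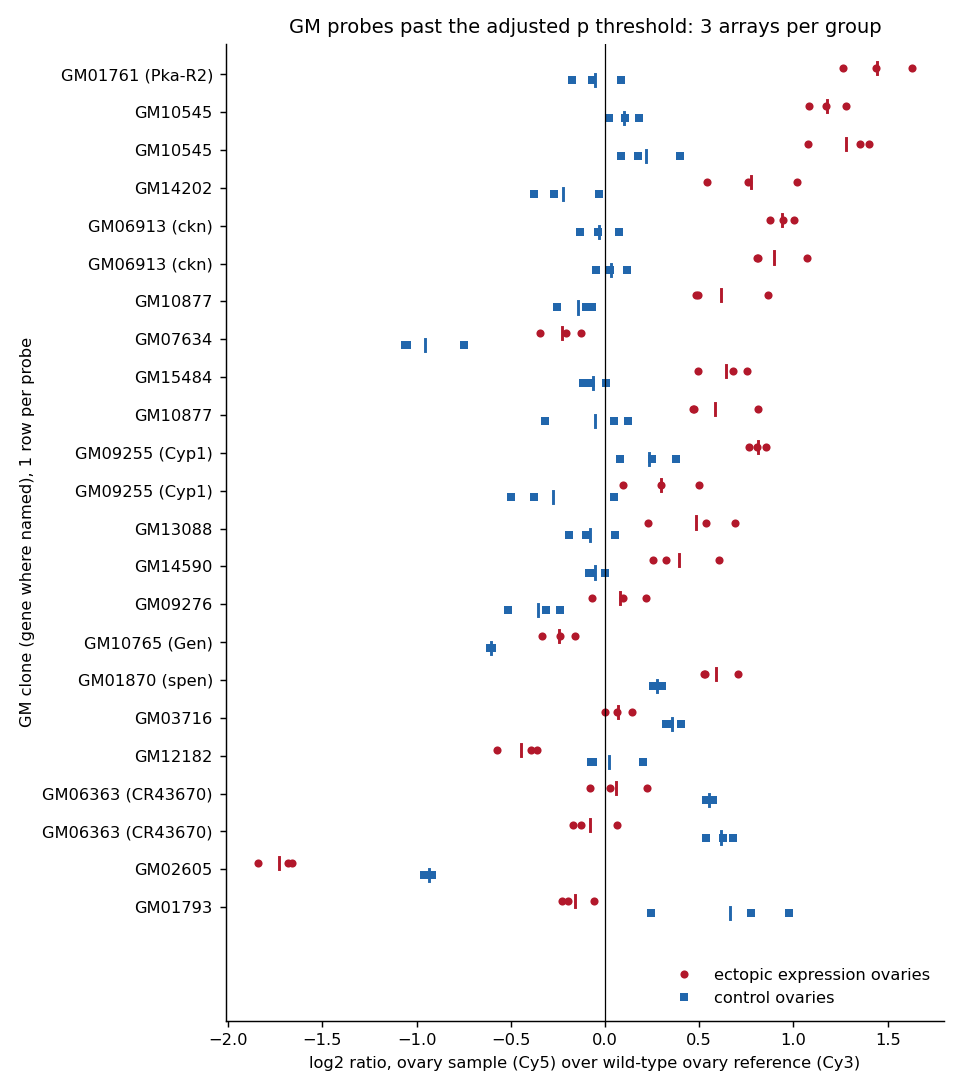
Log2 ratio of the ovary sample over the wild-type reference (x axis) for the 23 GM probes past the adjusted P-value threshold (1 row per probe), in the 3 ectopic expression arrays (red circles, upper) and the 3 control arrays (blue squares, lower). Vertical ticks mark the group means, the groups do not overlap in any row, and the control points of 17 probes average within 0.5 of wild type.

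The remaining clones past the threshold have no gene name here and were named after their values were seen, as all of those that passed. Among the higher ones, GM07634 lay below wild type in control ovaries, with log2 ratios of -0.34, -0.21 and -0.13 in ectopic expression ovaries, against -1.06, -1.05 and -0.75 in control ovaries (difference 0.73, limma adjusted P = 0.00328). The probes of GM10877 had differences of 0.76 and 0.63, and those of GM13088, GM14590 and GM09276 had 0.56, 0.45 and 0.44. With each array left out, 1 GM10877 probe passed in 4 of 6 fits, GM13088 in 2, GM14590 in 1 and GM09276 in 2. Of the 17 higher probes 14 were farther from wild type in ectopic expression than in control ovaries, and 3 were nearer to it.

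Of the 6 lower probes, 2 were farther from wild type in ectopic expression ovaries and 4 nearer to it. These 4 include both probes of the clone GM06363. The higher probes also include several of the same clone, and the share over all probes is not given for either split. GM02605 was below wild type in both groups, with log2 ratios of -1.68, -1.66 and -1.84 in ectopic expression ovaries, against -0.92, -0.96 and -0.92 in control ovaries. Its replicates were tight, and its level fell by 0.79 on the log2 scale (SE 0.08, limma adjusted P = 0.000467). The probe of GM01793, one of the 5 named above for their brightness, had log2 ratios of -0.06, -0.19 and -0.23 in ectopic expression ovaries, against 0.98, 0.77 and 0.24 in control ovaries, and the 3 control replicates were spread widely. It had the largest decrease of the set, -0.83 ± 0.17 (SE, limma adjusted P = 0.0148), and missed the threshold without ectopic expression replicate 1 or control replicate 2. GM12182 and GM03716 had differences of -0.46 and -0.29, and passed in 4 and 0 of the 6 fits with an array left out.

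Clones with several probes gave a limited check on single probes. Of the 22 such clones 18 had differences of the same sign on each probe, and in the 4 with opposite signs no difference exceeded 0.18 in size. Agreement in sign says little by itself, because 72.4% of all GM probes had a positive difference. The 18 include GM03260, GM03978, GM04458, GM04590 and GM07526, which had no probe detected on more than 2 arrays. The gap between the lowest and the highest probe of a clone had a median of 0.08 on the log2 scale. Probes near background have ratios near 0, which also keeps such gaps small. All probes passed the threshold in 4 clones (GM10545, GM06913, GM10877 and GM06363), none did in 14, and some but not all did in GM01870, GM09255, GM09276 and GM15484. The widest gap, 0.37, was that of GM15484, whose probe A_09_P049726 had a difference of 0.33 (limma adjusted P = 0.0606) and whose probe A_09_P197121 had 0.70 (limma adjusted P = 0.00161). The 2 probes of GM09276 differed by 0.02, with limma adjusted P-values of 0.0286 and 0.0671. The number of arrays with a signal well above background differed among the probes of 13 clones, and for SK 1 probe was detected on 6 arrays and the other on 0. Probes of 1 clone share a target, so they are not independent evidence of a change.

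**Figure D5:**
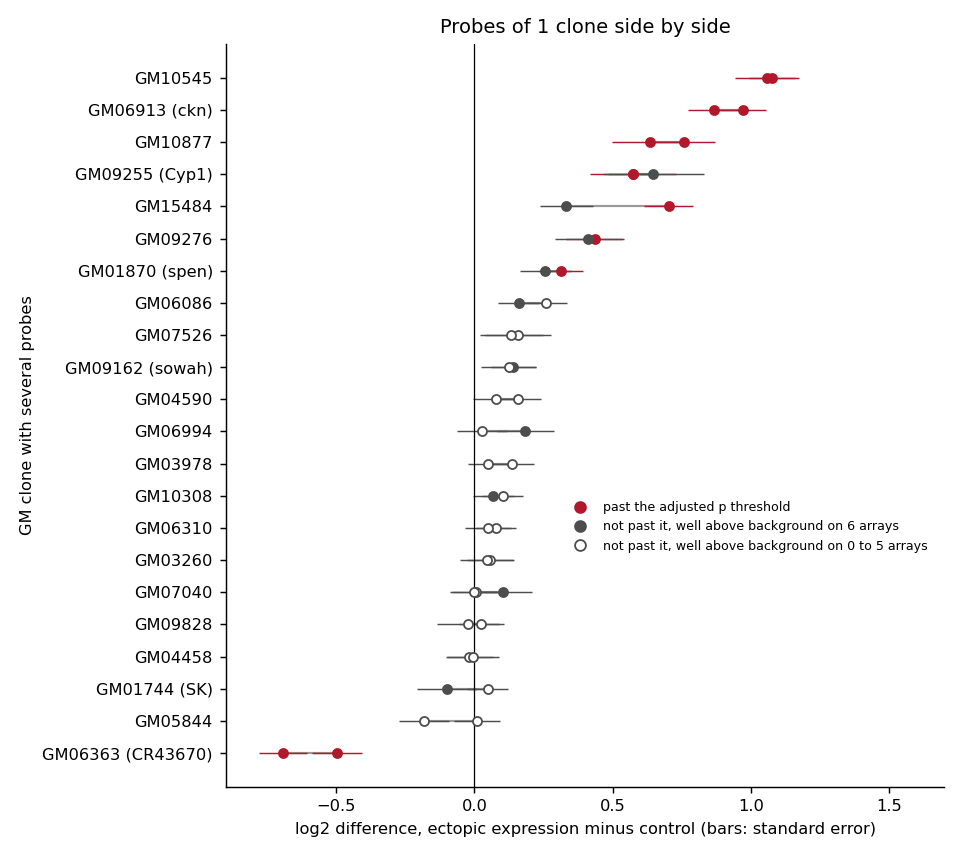
Log2 difference of ectopic expression minus control ovaries (x axis, bars are standard errors) for each probe of the 22 GM clones with several probes (y axis). Red points are past the adjusted P-value threshold, open points were well above background on fewer than 6 arrays, and the widest gap is 0.37 for GM15484.

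Arrays of a group resembled each other more than arrays of different groups, over the GM probes as over the whole array. The correlation of log2 ratios across the 87 probes, which are not independent replicates and share a reference, was between 0.86 and 0.95 for pairs of ectopic expression arrays and between 0.75 and 0.89 for pairs of control arrays. It was between 0.32 and 0.53 for pairs of 1 array from each group. Over all probes the ranges were 0.84 to 0.94, 0.74 to 0.84 and 0.45 to 0.59 for the same kinds of pairs.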

How the data were processed

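RNA of 3 ectopic expression and 3 control ovary preparations, 322 ng per labeling reaction, was measured against a common wild-type reference without a dye swap. The authors deposited the scanner software's output (Feature Extraction, version 11.0.1.1), which gives each spot's median intensity and its local background median, both uncorrected, and flags. The same deposited files hold a log10 ratio after the software's own background and dye correction. The authors also deposited log2 ratios, which their methods describe as corrected by normexp and normalized by loess and quantiles. Rows of that table follow the spot order of the scanner files, checked by a correlation above 0.999 with the ratios computed here on each array.

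In R 4.3.3 with limma 3.58.1, normexp background correction was run with its offset set to 50, control spots were removed, 106 to 123 outlier-flagged spots per array were left out, loess and then quantile normalization followed, spots of a probe were averaged, and groups were compared by lmFit and eBayes with Benjamini-Hochberg adjustment over 32162 probes. The threshold was an adjusted P-value of 0.05, and for calls also a fold change of 2. The procedure was tested on simulated ratios.

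The members and gene lists were chosen with earlier results of these data known. The rule for clones given by name took every clone paired with 1 gene (1 of these is not reported here), called probes, the 5 brightest probes in control ovaries, clones whose probes disagreed and the probes next to the 2-fold threshold. Names came from clone synonyms in the RefSeq table of Release 6, whose coordinates were left out since the array's annotation uses an earlier build. Probe sequences were not used here. Alternatives changed the background (offset 0, or none), the normalization (median centring, loess alone, Aquantile), the spots and probes (flagged ones kept, spots unaveraged, or probes detected on fewer than 3 arrays removed), the moderation (trended and robust), the values (Cy5 only, the software's log ratio, or the deposited ratios) and the design (replicate number as a block, or any 1 array left out).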

Additional observations from a re-analysis of the deposited data

How the results depend on the processing

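The number of GM probes called higher, 3, was 8 with an offset of 0, 5 without background correction and 6 with the Feature Extraction log ratio, and ran from 2 to 5 with each array left out. The number called lower, 0, was 1 with median centring (GM02605) and 1 with the Cy5 channel alone (GM01793), and ran from 0 to 1 with each array left out. Past the adjusted P-value threshold at any fold, 17 higher and 6 lower probes became 9 and 2 with an offset of 0, 8 and 1 with median centring, and 10 and 3 with the Feature Extraction log ratio. With each array left out, the higher count ran from 10 to 21 and the lower count from 2 to 5. The median log2 difference of 0.10 was 0.23 with an offset of 0, 0.12 without background correction, 0.16 with median centring, 0.19 with dim probes left out and 0.31 with the Feature Extraction log ratio, and ran from 0.09 to 0.11 with each array left out. The causes of these changes were not tested, except that leaving out dim probes tests fewer probes. Counts and medians over all probes are not given for these settings, so a change cannot be called particular to the GM probes. The mean over arrays of the median Cy5 intensity, 91.2, was 157 without background subtraction and ran from 85.3 to 94.1 with each array left out. The detected share ran from 65.3% to 70.1% in Cy5 and from 63.4% to 65.1% in Cy3.

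With the replicate number, which is also the slide, as a block, 3 probes were called higher and 0 lower, and 17 and 5 passed at any fold, of which 16 and 5 were shared with the fit without the block. Deviations of same-numbered arrays correlated at 0.25, 0.002 and 0.10, which did not exceed 0.1 in each pair, and no label says that a number marks a shared batch, so the block was not part of the comparison reported.

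Among the 40 probes chosen by name, signs turned for 7, none of which passed in any setting. With median centring the differences were -0.13 for GM02062, -0.075 for Polr2J (GM15177) and -0.019 for GM22884. With Cy5 alone they were -0.0059 for 1 sowah probe (GM09162) and -0.040 for 1 SK probe (GM01744), which was -0.0069 without background correction. With each array left out, Cf2 (GM09668) ran from -0.19 to 0.10 and CG33941 (GM01028) from -0.077 to 0.14, and both turned without ectopic expression replicate 3 and without control replicate 3. Signal near background limits the 36 GM probes that were not detected on all 6 arrays.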
